A study of Aspergillus nidulans with 24 samples.

Results

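The genes creA (AN6195), creB (AN3587) and AN6566 of the filamentous fungus *Aspergillus nidulans* were chosen by their identifiers as genes of carbon catabolite repression, and are 3 of 10631 genes measured. Their RNA was followed over 24 libraries from the mycelium of 4 strains. AN6566 was entered as creC, but the RefSeq names table of assembly ASM1142v1 gives it the symbol cnaB, the regulatory subunit of calcineurin. It is therefore called AN6566 (cnaB) here, no value below is one of creC, and creC is not analysed here. The table gives creA and creB the symbols under which they were entered.

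The series has 3 recombinant strains that each made a heterologous enzyme: AbfA (a GH51 alpha-arabinofuranosidase), BglC (a GH3 beta-glucosidase) and 1542 (a thermophilic GH5 mannanase). They were compared with their parent A773, which carries pyrG89, wA3 and pyroA4. Mycelium was grown on 1% glucose and then held in 2% maltose with 250 mM HEPES, a medium meant to activate the promoter before the introduced gene, at 37 °C for 2 h or 8 h. Every strain and time had 3 libraries, which the labels call biological triplicates. All groups share the maltose medium and a history on glucose, and no library from glucose was analysed here. The labels do not say whether a recombinant strain is 1 transformant or which background markers it still carries, so that the introduced gene, its insertion and the selection marker cannot be told apart in a difference from A773.

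Carbon catabolite repression is the process by which a favoured sugar such as glucose keeps genes for the use of other carbon sources off. In *A. nidulans* its main repressor is CreA, a zinc finger protein that binds DNA before many such genes. CreB is a deubiquitinating enzyme that works with the WD40 protein CreC, and mutants of either are altered in repression. Calcineurin, to which cnaB belongs, is a phosphatase switched on by calcium and calmodulin. What these proteins do depends on their amount, place and modification as well as on their RNA, and only RNA was measured here.

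FPKM values divide the fragments of a gene by its length and by the size of the library. The whole reads recovered from them came to between 7140191 and 32310202 per library. Each introduced gene was present in its own strain, with AbfA at 2689 to 6255 FPKM, BglC at 5805 to 9177 and 1542 at 695.5 to 1067, and it stayed at or below 1.98 FPKM in the libraries of other strains. The deepest library, AbfA at 2 h replicate 1, also stood furthest from its own group, with a median absolute deviation of 0.204 on the log2(FPKM + 1) scale. The other 23 libraries ranged from 0.074 to 0.195. Results that turn on that library are given with and without it.

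Per length, the ranges of the 3 genes over all libraries did not overlap each other. creA was abundant in every library, with a median of 605 FPKM and a range from 409 to 984 FPKM, between the 95.5th and 98.0th percentile of all genes of a library. AN6566 (cnaB) had a median of 147 FPKM and ranged from 107 to 225. creB had a median of 36.85 FPKM and ranged from 28.6 to 56.9. The highest library stood 2.40-fold over the lowest for creA, 2.10-fold for AN6566 and 1.99-fold for creB. Behind these values were 5404 to 25167 reads for creA, 616 to 2624 for AN6566 and 570 to 4183 for creB. Counting error alone was at most 1.36% of a creA value, 4.03% of an AN6566 value and 4.19% of a creB value. The median coefficient of variation among the 3 libraries of a group was 7.75% for creA, 9.46% for AN6566 and 7.72% for creB.

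**Figure D1:**
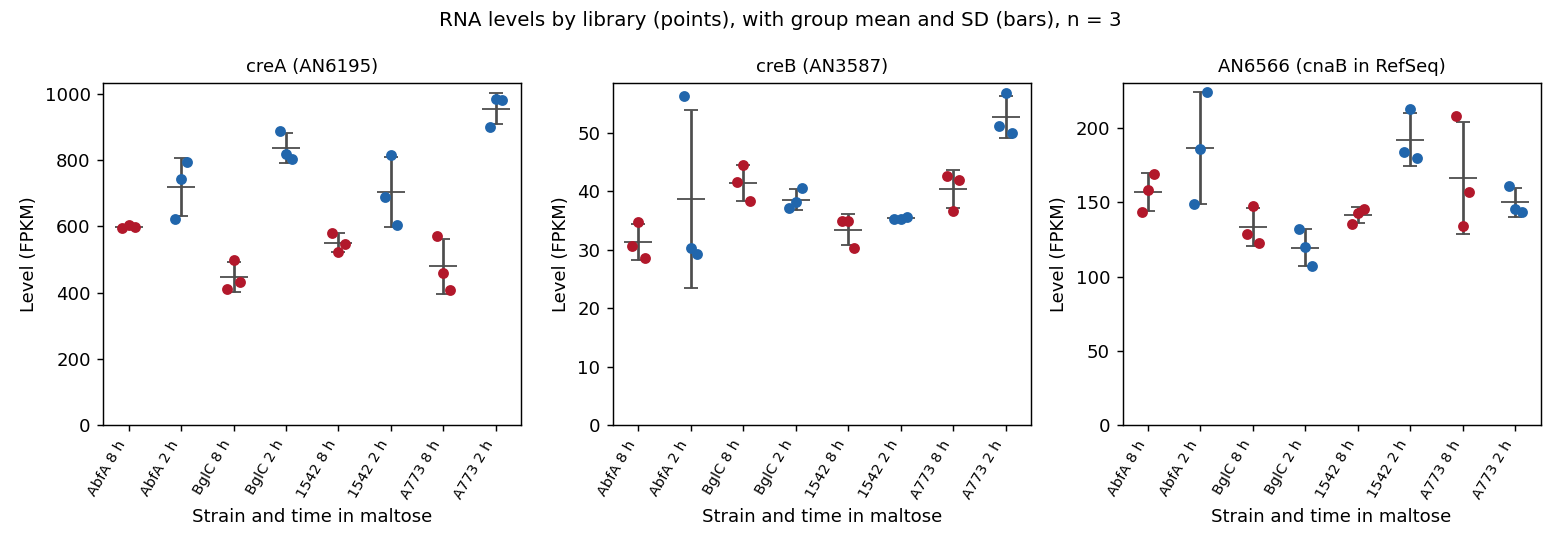
FPKM of creA, creB and AN6566 (cnaB) in each of the 24 libraries, 1 panel per gene with its own axis from 0, with 8 h left of 2 h in each strain and A773 last. Points are libraries, and horizontal lines with bars are the mean and SD of 3. creA is highest in A773 at 2 h (900.4 to 984 FPKM) and creB stands highest there too on average, while AN6566 has its highest mean in 1542 at 2 h (180.1 to 213 FPKM) and its highest library, at 224.5 FPKM, in AbfA at 2 h.

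creA fell between the times in the parent and in BglC, and the changes in AbfA and 1542 were smaller and did not pass. In A773 creA had 571, 459 and 409 FPKM at 8 h, against 900.4, 984 and 982 FPKM at 2 h. In BglC it had 409.5, 497 and 433 FPKM at 8 h, against 887, 818 and 803 FPKM at 2 h. All 8 h libraries of both strains lay far below all their 2 h libraries. On the log2(FPKM + 1) scale the change was −1.01 ± 0.13 in A773 (SE, n = 3 each, limma adjusted p = 2.86e-06). It was −0.91 ± 0.13 in BglC (limma adjusted p = 4.66e-05). Of the 3 genes, creA was the only one to fall in A773, where 16.8% of all genes tested fell, and in BglC, where 10.6% did.

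In AbfA creA had 595, 605 and 597.5 FPKM at 8 h, against 623, 742 and 793 FPKM at 2 h. In 1542 it had 581, 524 and 548 FPKM at 8 h, against 688, 814 and 604.5 FPKM at 2 h. The 8 h libraries lay below the 2 h libraries in both strains without overlap, but the gap was narrow, and the lowest 2 h library stood close to the highest 8 h library. Groups without overlap were common: in these comparisons of 8 h with 2 h, 37.8% of all genes in AbfA, 40.3% in BglC, 41% in 1542 and 57.4% in A773 did not overlap. The change was −0.26 ± 0.13 in AbfA (SE, n = 3 each, limma adjusted p = 0.159) and −0.34 ± 0.13 in 1542 (adjusted p = 0.0676), and neither passed the test. Without 1542 at 2 h replicate 3, the change in 1542 was −0.44 and passed (limma adjusted p = 0.0373, with 0.0373 to 0.264 over 12 alternatives). None of the 3 genes was called in AbfA (0 by limma on FPKM, 0 by voom on the recovered reads, 0 at an unadjusted p under 0.05), where 19.1% of all genes were.

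The test of the difference itself separated AbfA and 1542 from the parent. The creA change in AbfA minus that in A773 was 0.75 ± 0.18 on the log2(FPKM + 1) scale (SE, limma adjusted p = 0.00735), and 5.81% of all genes had a positive difference that passed. In 1542 the difference was 0.66 ± 0.18 (limma adjusted p = 0.0134), and 5.64% of all genes passed upward. Both held in all 18 alternatives, with adjusted p of 0.00118 to 0.0265 for AbfA and 0.00147 to 0.0429 for 1542. creA was the only one of the 3 genes called in either. In BglC the difference was 0.10 (95% interval −0.27 to 0.47, limma adjusted p = 0.796), and none of the 3 genes was called (0 by limma, 0 by voom, 0 at an unadjusted p under 0.05), against 10.1% of all genes. These 3 differences share the A773 libraries. Averaged over the 4 strains, creA changed by −0.63 ± 0.06 (limma adjusted p = 1.04e-07), a fall that held in all 29 alternatives, while 22.5% of all genes fell.

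The FPKM were used with no further scaling between libraries. The median change over all genes was 0.13 on the log2 scale for 8 h against 2 h in A773, −0.10 for BglC against A773 at 2 h and −0.14 at 8 h, and −0.15 for the change in 1542 minus that in A773. After median-of-ratios scaling brought these medians close to 0, the creA change was −1.15 in A773, −0.99 in BglC, −0.31 in AbfA and −0.33 in 1542. The one in 1542 then passed (limma adjusted p = 0.0401, with 0.0373 to 0.264 over 12 alternatives). The scaled differences from A773 were 0.85 for AbfA, 0.82 for 1542 and 0.16 for BglC.

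Of 8 marker genes of conidiophores, the spore-bearing structures that a culture of mycelium can also hold, 3 fell between the times in A773. The summed level of the 8 was 182 to 241 FPKM in A773 at 8 h, against 1447 to 4009 at 2 h. In AbfA it was 1831 to 3552 at 8 h, against 1226 to 1488 at 2 h, and in 1542 it was 585 to 771 at 8 h, against 754 to 1625 at 2 h. In BglC it was 82.1 to 1347 at 8 h, against 134 to 2508 at 2 h, with wide overlap. The sum is mostly 1 gene in many libraries: rodA, a hydrophobin of the spore wall, made up 72.5% to 78.9% of it in A773 at 8 h, against 33.7% to 72.2% at 2 h. In AbfA rodA made up 75.4% to 87.9% at 8 h, against 41.4% to 59.9% at 2 h. Its mean and those of brlA and ivoB lay opposite ways there. In AbfA rodA had 2342 ± 846 FPKM at 8 h, against 747.5 ± 209 at 2 h (SD, n = 3 each, limma adjusted p = 0.343), while brlA had 93.5 ± 21.7 at 8 h, against 131 ± 8.56 at 2 h (adjusted p = 0.453) and ivoB had 307 ± 85.5 at 8 h, against 483 ± 64.1 at 2 h (adjusted p = 0.264).

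Of the 8 markers, 3 fell and 0 rose in A773, among them brlA, the regulator that starts conidiophore formation (−2.97 ± 0.44, limma adjusted p = 2e-05), and ivoB, a phenol oxidase of the conidiophore pigment (−7.30 ± 0.42, adjusted p = 2.4e-10), while 16.8% of all genes fell. There rodA did not pass (−2.77 ± 1.15, limma adjusted p = 0.0535), nor did abaA (0.069), wetA (0.199), pksP (0.278) and yA (0.0618). In BglC 3 fell and 0 rose, with 10.6% of all genes falling. Of those 3, ivoB held in all 12 alternatives, and brlA and wetA, a regulator of spore maturation, each ended in 5: without BglC at 2 h replicate 1 or 3, without BglC at 8 h replicate 2 or 3, and in a fit of the 6 libraries alone. In AbfA and 1542 limma and voom called 0 (2 and 0 at an unadjusted p under 0.05). The shares of all genes were low there too, with 10.9% rising and 8.14% falling in AbfA. In 1542 8.62% rose and 9.18% fell. No marker was at 0 in any library. The part of conidiophore RNA in the creA result was not tested. Fewer cells of a type and less RNA per cell cannot be told apart in RNA of a whole culture.

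At 2 h creA was lower in AbfA and 1542 than in the parent. It stood at 719 ± 87.6 FPKM in AbfA, 836 ± 44.7 in BglC and 702 ± 106 in 1542, against 955 ± 47.7 in A773 (SD, n = 3 each). Every library of each recombinant strain lay below every library of A773. In the comparisons with A773 at 2 h, 40.4% of all genes in AbfA, 34% in BglC and 53.3% in 1542 did not overlap. The difference was −0.42 ± 0.13 for AbfA (SE, limma adjusted p = 0.0176) and −0.45 ± 0.13 for 1542 (adjusted p = 0.00872). For BglC it was −0.19 (95% interval −0.46 to 0.07, limma adjusted p = 0.276).

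Some conidiophore markers were called against A773 as well. At 2 h, 1 of the 8 fell in AbfA, 1 in BglC and 4 in 1542, and 0 rose in each, with medians of −0.39, −0.86 and −0.76. Of all genes, 13.5% fell in AbfA, 15.7% in BglC and 16.1% in 1542. These counts hung on single libraries: the 4 in 1542 became 0 without 1542 replicate 2 or without A773 replicate 3, 1 without 1542 replicate 3, and 2 without 1542 replicate 1, A773 replicate 1 or A773 replicate 2. The 1 in AbfA became 0 without A773 replicate 2 or 3 or without AbfA replicate 1 or 3, and the 1 in BglC became 7 without BglC replicate 1. At 8 h, 6 rose in AbfA, 1 in BglC and 1 in 1542, and 0 fell. Of all genes, 11.3% rose in AbfA, 7.09% in BglC and 5.42% in 1542. Over 12 alternatives 3 to 7 markers were called in AbfA, with 3 without AbfA replicate 3 and 4 without A773 replicate 3. In BglC 1 to 2 were called (2 without BglC replicate 1), and in 1542 1 to 4 (2 without 1542 replicate 2). In the change minus that in A773, 5 of the 8 passed upward in AbfA, 1 in BglC and 2 in 1542. Of all genes, 5.81% passed upward in AbfA and 5.64% in 1542, and 10.1% passed either way in BglC. The 5 in AbfA became 3 without AbfA at 2 h replicate 3, AbfA at 8 h replicate 3, A773 at 2 h replicate 3, or A773 at 8 h replicate 2 or 3. The 1 in BglC became 3 without BglC at 2 h replicate 1 and 2 without BglC at 8 h replicate 3, and the 2 in 1542 became 1 without 1542 replicate 2 of either time, A773 at 2 h replicate 3 or A773 at 8 h replicate 2. ivoB was among them in each strain, and its calls there held in all 18 alternatives. The part of these genes in the creA differences between strains was not tested.

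Of the 3 genes, creA and creB fell in AbfA at 2 h, where 13.5% of all genes fell, and the same pair fell in 1542, where 16.1% did. In BglC at 2 h limma called 0 of the 3, and so did voom, with 2 at an unadjusted p under 0.05, while 23.2% of all genes were called. The creA call in AbfA did not hold without A773 replicate 2 (limma adjusted p = 0.0637), A773 replicate 3 (0.059) or AbfA replicate 1 (0.0687), nor in a fit of the 6 libraries alone (0.0727), and its adjusted p over 12 alternatives ran from 0.00422 to 0.0727. The call in 1542 did not hold without 1542 replicate 3 (limma adjusted p = 0.0594, with 0.00141 to 0.0594 over 12 alternatives).

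At 8 h the order of creA among the strains was another one. It stood at 599 ± 5.39 FPKM in AbfA, 446.5 ± 45.4 in BglC and 551 ± 28.5 in 1542, against 479.6 ± 82.6 in A773 (SD, n = 3 each). The AbfA libraries lay above all A773 libraries, as the groups of 49% of all genes did not overlap there, and the libraries of BglC and 1542 overlapped with those of A773. The difference was 0.33 ± 0.13 for AbfA (SE, limma adjusted p = 0.0543), −0.09 for BglC (95% interval −0.36 to 0.17) and 0.21 for 1542 (95% interval −0.05 to 0.48), and none passed. A773 replicate 1, at 571 FPKM, was the highest of its group. Without it the AbfA difference was 0.47 (limma adjusted p = 0.0177) and after scaling it was 0.39 (0.014), with a range from 0.014 to 0.26 over 12 alternatives. The sign for BglC turned with the same library left out (0.04) and after scaling (0.06).

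None of the 3 genes was called against A773 at 8 h in any recombinant strain, by limma or by voom, with 2 at an unadjusted p under 0.05 in AbfA and 0 in BglC and in 1542. Of all genes, 27.9% were called in AbfA, 28% in BglC and 18.2% in 1542. Among the recombinant strains creA differed at 8 h in limma's F-test (F = 6.11, adjusted p = 0.0404), where 23.9% of all genes did. That call held in 5 of 15 alternatives (adjusted p from 0.0199 to 0.155) and ended without any 1 of the 9 libraries but BglC replicate 2, and after scaling (0.0707). At 2 h the F-test gave an adjusted p of 0.168 for creA, and 0.00694 after scaling (0.00694 to 0.381 over 15 alternatives), while 50.6% of all genes differed.

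Over all 8 groups, the order of creA was A773, BglC, AbfA and 1542 at 2 h, then AbfA, 1542, A773 and BglC at 8 h. Each 2 h mean was above each 8 h mean. Neighbours in this order whose means differed by less than the larger of their SDs were AbfA and 1542 at 2 h, 1542 at 2 h and AbfA at 8 h, 1542 and A773 at 8 h, and A773 and BglC at 8 h. The genes whose profile over the 24 libraries was most like that of creA were AN6684, AN6496 (las21) and AN4095. Their root mean square difference from it, after centring each log2(FPKM + 1) profile on its own mean, was 0.13, 0.137 and 0.155, against a median of 0.536 over all genes. AN6496 had a mean of 16.7 FPKM at 8 h in A773, against 32.0 at 2 h, and 16.9 FPKM at 8 h in BglC, against 28.6 at 2 h.

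creB, the deubiquitinating enzyme, stood highest in A773 at 2 h. At that time it had 56.3, 30.3 and 29.35 FPKM in AbfA, against 51.2, 56.9 and 50.01 FPKM in A773. In BglC it had 37.1, 38.1 and 40.6 FPKM, and in 1542 it had 35.25, 35.2 and 35.7 FPKM, against the same A773 libraries. All libraries of BglC and 1542 lay below all of A773, and so did AbfA replicates 2 and 3. The groups of 34% of all genes in BglC and 53.3% in 1542 did not overlap with A773 either way. AbfA replicate 1, the library that stands apart, was close to the highest A773 library.

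The creB difference was −0.56 ± 0.16 in 1542 (SE, limma adjusted p = 0.0116), and −0.50 ± 0.16 in AbfA (adjusted p = 0.0255), both on the log2(FPKM + 1) scale. Without AbfA replicate 1 the difference in AbfA was −0.80 (limma adjusted p = 1.97e-05). The call in AbfA ended without A773 replicate 2 (0.0975), AbfA replicate 2 (0.144) or AbfA replicate 3 (0.151) and in a fit of the 6 libraries alone (0.198), so that its adjusted p ran from 1.97e-05 to 0.198 over 12 alternatives. The call in 1542 ended without A773 replicate 2 (limma adjusted p = 0.0525, with 0.00506 to 0.0525 over 12 alternatives). In BglC the difference of −0.44 ± 0.16 did not pass (limma adjusted p = 0.0577), and it did not pass in any of 12 alternatives. The 3 comparisons share the A773 libraries. Among the recombinant strains creB did not pass the F-test at 2 h (limma adjusted p = 0.807), and it passed without AbfA replicate 1 (0.0213, with 0.0213 to 0.916 over 15 alternatives).

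At 8 h creB had 30.7, 34.7 and 28.6 FPKM in AbfA, 41.5, 44.5 and 38.3 FPKM in BglC, and 35.0, 34.9 and 30.3 FPKM in 1542. A773 had 42.5, 36.6 and 42.0 FPKM. The libraries of AbfA and 1542 lay below those of A773 without overlap, as did the groups of 49% and 38.7% of all genes either way, and those of BglC overlapped with them. In BglC 43.3% of all genes did not overlap. The difference was −0.36 ± 0.16 for AbfA (SE, limma adjusted p = 0.11), −0.27 ± 0.16 for 1542 (0.281) and 0.04 for BglC (95% interval −0.30 to 0.38, 0.887). In a fit of the 6 libraries alone the AbfA difference passed narrowly (limma adjusted p = 0.0498, with 0.0498 to 0.276 over 12 alternatives).

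Over time creB passed in no strain. Its mean in A773 was 40.4 ± 3.28 FPKM at 8 h, against 52.7 ± 3.67 at 2 h (SD, n = 3 each). These groups did not overlap, as those of 57.4% of all genes did not. That change of −0.38 ± 0.16 had a limma adjusted p of 0.0629, and it passed after scaling (−0.52, 0.0247) and in a fit of the 6 libraries alone (0.0279), with 0.0247 to 0.183 over 12 alternatives. The change was −0.23 in AbfA (95% interval −0.58 to 0.11), 0.10 in BglC (−0.24 to 0.44) and −0.08 in 1542 (−0.42 to 0.26). Without AbfA at 2 h replicate 1 the change in AbfA was 0.06. The change minus that in A773 was 0.14 in AbfA, 0.48 in BglC and 0.29 in 1542, with limma adjusted p of 0.717, 0.211 and 0.395. Without AbfA at 2 h replicate 1 the value for AbfA was 0.44 and passed (0.0285, with 0.0285 to 0.993 over 18 alternatives).

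In the order of its 8 groups creB had A773 at 2 h first, and its next mean, BglC at 8 h with 41.5 ± 3.09 FPKM, differed from it by more than the larger SD. Every other neighbour in the order differed by less than the larger SD, except BglC and 1542 at 2 h. The genes with the profile most like that of creB were AN10340, AN7682 and AN0082, with root mean square differences of 0.164, 0.164 and 0.165, against a median of 0.454 over all genes. AN10340 had a mean of 91.2 FPKM at 8 h in A773, against 143 at 2 h.

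AN6566 (cnaB) differed among the recombinant strains at 2 h. It had 149, 186 and 224.5 FPKM in AbfA, 132, 120.0 and 107 FPKM in BglC, and 184, 213 and 180.1 FPKM in 1542, with 161, 145 and 143.5 FPKM in A773. The BglC libraries were the lowest, below every other library of that time, and those of 1542 lay above those of A773. Against A773, the groups of 34% of all genes in BglC and 53.3% in 1542 did not overlap. AbfA overlapped with both 1542 and A773. In the F-test among the recombinant strains F was 12.99 (limma adjusted p = 0.0012), and the call held in all 15 alternatives (0.000212 to 0.0189), but 50.6% of all genes also differed there. At 8 h the F-test gave an adjusted p of 0.446.

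Against A773 at 2 h, AN6566 passed in no strain. The difference was 0.29 ± 0.15 in AbfA (SE, limma adjusted p = 0.134), −0.33 ± 0.15 in BglC (0.112) and 0.35 ± 0.15 in 1542 (0.0665). It passed in 1542 in a fit of the 6 libraries alone (0.0337, with 0.0337 to 0.204 over 12 alternatives). In AbfA it was 0.45 and passed without AbfA replicate 1 (limma adjusted p = 0.0241, with 0.0241 to 0.5 over 12 alternatives).

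At 8 h AN6566 had 143, 158 and 169 FPKM in AbfA, 129, 147.5 and 123 FPKM in BglC, and 135.5, 143 and 146 FPKM in 1542. A773 had 208, 134 and 157 FPKM, the widest of these groups, and every recombinant strain overlapped with it. The differences of −0.06 in AbfA, −0.30 in BglC and −0.21 in 1542 did not pass (limma adjusted p = 0.778, 0.138 and 0.353). A773 replicate 1 was again the highest of its group, and without it the difference in AbfA was 0.11. Without A773 replicate 2 the difference in BglC was −0.44 and passed (limma adjusted p = 0.038, with 0.038 to 0.565 over 12 alternatives).

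Between the times AN6566 was lower at 8 h in 1542, with 141.5 ± 5.32 FPKM at 8 h, against 192 ± 17.8 at 2 h (SD, n = 3 each). These groups did not overlap, as those of 41% of all genes did not. The change was −0.44 ± 0.15 (SE, limma adjusted p = 0.0478), and 9.18% of all genes fell. That call is a narrow one: it ended without any 1 of the 6 libraries and without the filter on low values (0.0515), and its adjusted p over 12 alternatives ran from 0.0199 to 0.154. The change was −0.23 in AbfA, 0.16 in BglC and 0.13 in A773, and none of these passed. The sign in A773 turned after scaling (−0.02) and without A773 at 8 h replicate 1 (−0.05). The change in 1542 minus that in A773 was −0.56 ± 0.21 (limma adjusted p = 0.0638), and it passed without A773 at 8 h replicate 2 (0.0243, with 0.0243 to 0.172 over 18 alternatives).

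The highest mean of AN6566 was that of 1542 at 2 h, but without AbfA replicate 1 the mean of AbfA at 2 h, 205 FPKM over 2 libraries, stood above it. Neighbouring means in the order of AN6566 differed by less than the larger SD, from 1542 at 2 h (192 FPKM) down to BglC at 8 h (133 FPKM), and BglC at 2 h, at 119.5 ± 12.4 FPKM, stood below it by more than that. The genes with the profile most like it were AN7422, AN4033 and AN1401, with root mean square differences of 0.101, 0.119 and 0.125, against a median of 0.402 over all genes. AN4033 had a mean of 77.1 FPKM in BglC at 2 h and 144 in 1542 at 2 h, with 99.6 in A773 at 2 h.

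**Figure D2:**
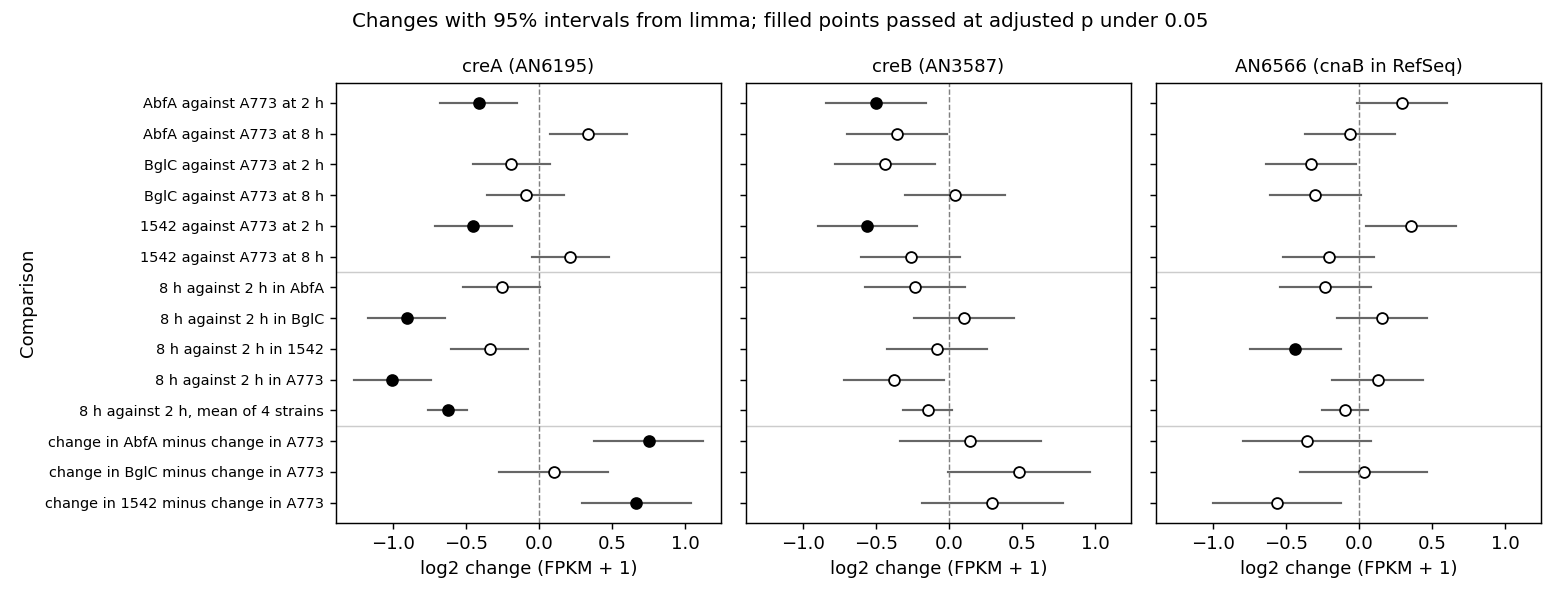
Differences of creA, creB and AN6566 (cnaB) on the log2(FPKM + 1) scale with their 95% intervals, for each recombinant strain against A773, for 8 h against 2 h in each strain and on average, and for the change in a recombinant strain minus that in A773. Filled points passed the limma test. creA at −1.01 in A773 and −0.91 in BglC lies furthest from 0.

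Over all 16 comparisons, creA was called in 8, creB in 2 and AN6566 in 2, while 933 to 5316 of 9201 genes tested were called in a comparison. The groups did not overlap in 8 of the 10 pairwise comparisons for creA, in 6 for creB and in 3 for AN6566. In each of these 10 comparisons, between 34% and 57.4% of all genes did not overlap. The mean ratio of creB to AN6566 lay between 0.185 and 0.352 in the 8 groups, and was 0.201 ± 0.0277 in AbfA at 8 h, against 0.224 ± 0.135 at 2 h (SD, n = 3 each). This ratio had been planned for creB and creC and carries no such meaning for cnaB. Its log2 changed by −0.05 over time on average, with an exact two-sided permutation p of 0.718.

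Other regulators of carbon catabolite repression were few among the named genes. Of 12 entered, 4 bear a usable symbol in the names table: rcoA, a corepressor like Tup1 of yeast; sfaD and gpaB, the beta and an alpha subunit of G proteins; and pkaC, the catalytic subunit of the cyclic AMP-dependent kinase. In each strain at 2 h, 2 of the 4 fell against A773 and 0 rose by limma. The median over the 4 was −0.33 in AbfA, −0.28 in BglC and −0.30 in 1542, against 0.04, −0.10 and 0.05 over all genes. At 8 h, 2 fell in AbfA, 1 in BglC and 0 in 1542 (0 by voom, 1 at an unadjusted p under 0.05). Of all genes, 13.5% fell in AbfA, 15.7% in BglC and 16.1% in 1542 at 2 h. At 8 h 16.6% fell in AbfA, 20.9% in BglC and 12.7% in 1542.

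The sfaD gene had 205 to 222 FPKM in AbfA at 2 h, against 281 to 330.3 FPKM in A773, and fell by 0.56 ± 0.12 on the log2(FPKM + 1) scale (SE, limma adjusted p = 0.00155). The rcoA gene had 132 to 146 FPKM in AbfA at 8 h, against 184 to 192 FPKM in A773, and the difference was −0.42 ± 0.10 (limma adjusted p = 0.0066). In neither case did the groups overlap, and both calls held in all 12 alternatives. The AbfA and A773 groups of 40.4% of all genes at 2 h and 49% at 8 h did not overlap. sfaD in AbfA at 8 h and in 1542 at 2 h also held in all 12. The other calls of the list against A773 were less stable: rcoA in AbfA at 2 h ended in 7 of 12 alternatives, rcoA and gpaB in BglC at 2 h and rcoA in BglC at 8 h in 5 each, and gpaB in 1542 at 2 h in 3.

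Between the times, 1 of the 4 rose and 1 fell in A773, and 2 rose and 0 fell in BglC, while limma and voom called 0 in AbfA and in 1542, with 0 at an unadjusted p under 0.05. Of all genes, 31.4% rose and 16.8% fell in A773, and 21.7% rose and 10.6% fell in BglC. In AbfA 10.9% rose and 8.14% fell, and in 1542 8.62% rose and 9.18% fell. gpaB had 88.1 to 139.6 FPKM in A773 at 8 h, against 137.5 to 160.5 at 2 h, and the change was −0.53 ± 0.15 (SE, limma adjusted p = 0.00662). pkaC had 64.7 to 71.9 FPKM in BglC at 8 h, against 48.0 to 49.4 at 2 h, a change of 0.49 ± 0.13 (limma adjusted p = 0.0076). The A773 libraries of gpaB overlapped between the times and the BglC libraries of pkaC did not. The groups of 57.4% of all genes in A773 and 40.3% in BglC did not overlap. The calls of gpaB and pkaC held in all 12 alternatives. The rise in A773 and the other rise in BglC were of rcoA, and they ended in 4 alternatives (after scaling and without A773 at 2 h replicate 1 or A773 at 8 h replicate 1 or 3) and in 5 (without BglC at 2 h replicate 2 or 3 or BglC at 8 h replicate 1 or 2, and in a fit of the 6 libraries alone).

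Genes under CreA control were represented by 5 of 15 entered, which are prnB, prnC and prnD for the uptake and breakdown of proline, facB, the activator of acetate use, and xlnR, the activator of xylan use. At 2 h, 4 of the 5 rose and 1 fell in 1542 against A773, 2 rose and 1 fell in AbfA, and 0 rose and 2 fell in BglC. Of all genes, 22.1% rose and 16.1% fell in 1542, 18.5% rose and 13.5% fell in AbfA, and 7.5% rose and 15.7% fell in BglC. The median over the 5 was 1.05 in 1542, 0.53 in AbfA and −0.36 in BglC. At 8 h, 1 rose in 1542 and 2 in AbfA, 0 rose in BglC, and 0 fell in each, while 5.42% of all genes rose in 1542, 11.3% in AbfA and 7.09% in BglC. In BglC at 8 h voom called 0 of the 5 too, with 1 at an unadjusted p under 0.05. All 5 calls in 1542 at 2 h held in all 12 alternatives. The call of facB in AbfA at 2 h ended in 4. In BglC at 2 h facB held, and xlnR ended in 5, scaling among them. At 8 h prnC held in AbfA, prnD in AbfA ended in 5, and prnC in 1542 ended without A773 replicate 1 or 3.

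The proline genes carried the largest of these differences. prnC, the pyrroline-5-carboxylate dehydrogenase, had 57.0 to 69.5 FPKM in 1542 at 2 h, against 11.7 to 13.7 FPKM in A773, and rose by 2.21 ± 0.37 on the log2(FPKM + 1) scale (SE, limma adjusted p = 0.000211). prnD, the proline oxidase, had 10.99 to 36.3 FPKM in 1542 at 2 h, against 3.55 to 7.05 FPKM in A773 (1.88 ± 0.37, limma adjusted p = 0.000755). The 1542 libraries of prnD differed widely among themselves, and neither gene overlapped with A773, where 53.3% of all genes did not. In AbfA at 2 h prnC ranged from 26.6 to 84.3 FPKM, and its call held in all 12 alternatives, while that of prnD ended in 2.

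prnB, the proline permease, stayed near the filter in every group. It had 2.78 to 4.48 FPKM in A773 at 8 h, against 0.819 to 1.05 at 2 h, a change of 1.15 ± 0.25 (SE, limma adjusted p = 0.000822). facB had 118 to 140.5 FPKM in A773 at 8 h, against 234 to 276 at 2 h, and fell by 0.93 ± 0.15 (limma adjusted p = 5e-05). xlnR had 19.6 to 21.0 FPKM in 1542 at 2 h, against 11.5 to 14.2 FPKM in A773 (0.59 ± 0.11, limma adjusted p = 0.000576). None of these groups overlapped, and the 3 calls held in all 12 alternatives. The groups of 57.4% of all genes between the times in A773, and of 53.3% in 1542 against A773 at 2 h, did not overlap. Between the times in A773, 2 of the 5 rose and 1 fell, with a median of 0.29, while 31.4% of all genes rose and 16.8% fell. The other rise, of xlnR, ended in 7 of 12 alternatives, scaling among them (limma adjusted p from 0.0172 to 0.321). In BglC 1 rose, again xlnR, and 0 fell, and that call ended in 3 of 12, without BglC at 2 h replicate 3 or BglC at 8 h replicate 3 and in a fit of the 6 libraries alone. limma called 0 in AbfA (0 by voom) and 0 in 1542 (1 by voom), with 1 at an unadjusted p under 0.05 in each. Beside these counts, 21.7% of all genes rose and 10.6% fell in BglC. In AbfA 10.9% rose and 8.14% fell, and in 1542 8.62% rose and 9.18% fell.

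**Figure D3:**
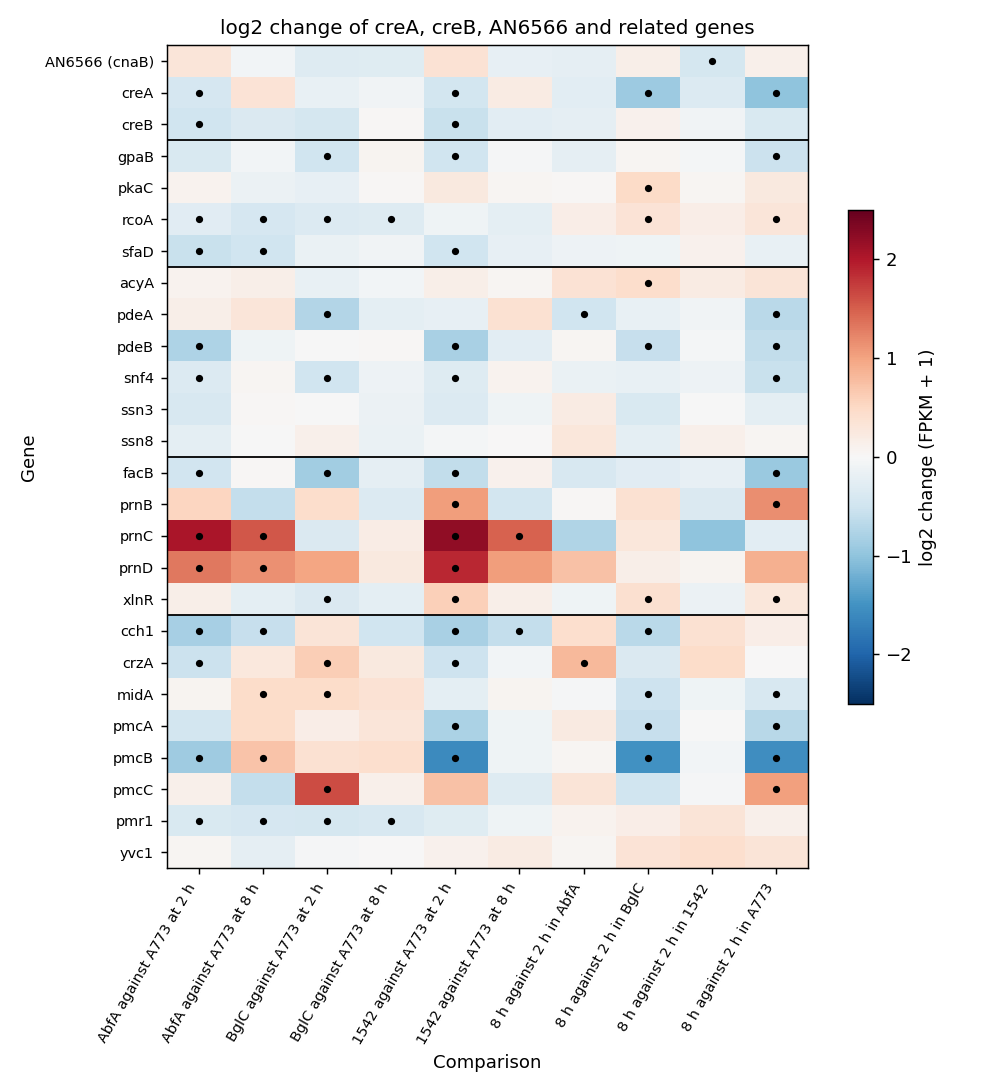
log2 change of creA, creB, AN6566 (cnaB) and the genes of 4 lists described in the text, on the log2(FPKM + 1) scale, with 1 row per gene and 1 column per comparison. Colour gives the size and sign, and marked cells passed the limma test. The prn genes stand out in 1542 at 2 h, with 2.21 for prnC and 1.88 for prnD.

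Of 6 signalling genes taken by symbol from the names table, which include the adenylate cyclase gene acyA, the phosphodiesterase genes pdeA and pdeB and snf4 (the gamma subunit of the Snf1 kinase in yeast), 2 fell and 0 rose against A773 at 2 h in each recombinant strain. At 8 h limma and voom called 0 in each, with 0 at an unadjusted p under 0.05 in AbfA and in BglC and 1 in 1542. Of all genes, 13.5% fell in AbfA, 15.7% in BglC and 16.1% in 1542 at 2 h. At 8 h 27.9% of all genes were called in AbfA, 28% in BglC and 18.2% in 1542. The median over the 6 at 2 h was −0.285 in AbfA, −0.10 in BglC and −0.27 in 1542. pdeB had 25.3 to 32.3 FPKM in 1542 at 2 h, against 44.7 to 55.9 FPKM in A773 (−0.81 ± 0.16, SE, limma adjusted p = 0.000619). pdeA had 1.73 to 2.67 FPKM in BglC at 2 h, against 3.54 to 5.61 FPKM in A773, and fell by 0.73 ± 0.17 (limma adjusted p = 0.00599), a call that ended in a fit of the 6 libraries alone (0.0757, with 0.0042 to 0.0757 over 12 alternatives). No pair of these groups overlapped, as those of 53.3% of all genes in 1542 and 34% in BglC did not.

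Between the times, snf4 had 47.8 to 61.9 FPKM in A773 at 8 h, against 75.4 to 78.4 at 2 h (−0.55 ± 0.10, limma adjusted p = 0.000234). acyA had 11.2 to 14.0 FPKM in BglC at 8 h, against 8.63 to 9.51 at 2 h (0.44 ± 0.13, limma adjusted p = 0.0146). The groups did not overlap in either case, as those of 57.4% of all genes in A773 and 40.3% in BglC did not. The acyA call ended without BglC at 8 h replicate 2 and in a fit of the 6 libraries alone, with limma adjusted p of 0.00975 to 0.0778 over 12 alternatives. In A773, 3 of the 6 fell and 0 rose, in BglC 1 rose and 1 fell, and in AbfA 1 fell. Of all genes, 16.8% fell in A773, 21.7% rose and 10.6% fell in BglC, and 8.14% fell in AbfA. The call in AbfA was pdeA, and it held in only 2 of 12 alternatives (limma adjusted p from 0.0211 to 0.129). limma and voom called 0 in 1542, with 0 at an unadjusted p under 0.05, while 8.62% of all genes rose and 9.18% fell.

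Since AN6566 bears the name of a calcineurin subunit, 8 genes of calcium handling and calcineurin were also taken by symbol. At 2 h, 4 of them fell and 0 rose in AbfA, and 4 fell and 0 rose in 1542, while 3 rose and 1 fell in BglC. Of all genes, 13.5% fell in AbfA, 16.1% fell in 1542, and 7.5% rose and 15.7% fell in BglC. The median over the 8 was −0.42 in AbfA, −0.42 in 1542 and 0.35 in BglC, against 0.04, 0.05 and −0.10 over all genes. In AbfA the call of crzA ended in 4 of 12 alternatives and that of pmr1 in 5, and in 1542 that of crzA ended in 4. Of the 4 calls in BglC, those of midA, crzA and pmr1 each ended in 5 of 12 alternatives. All 3 ended without A773 replicate 2, BglC replicate 2 or BglC replicate 3 and in a fit of the 6 libraries alone. pmcB, a vacuolar calcium pump, had 42.7 to 56.7 FPKM in 1542 at 2 h, against 119 to 173 FPKM in A773 (−1.58 ± 0.18, SE, limma adjusted p = 1.09e-05). pmcA, another such pump, had 22.5 to 29.7 FPKM in 1542, against 36.3 to 54.2 FPKM in A773 (−0.78 ± 0.18, limma adjusted p = 0.00275). pmcC, a further one, had 16.3 to 22.1 FPKM in BglC at 2 h, against 3.99 to 7.42 FPKM in A773, and rose by 1.64 ± 0.30 (limma adjusted p = 0.000997).

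cch1, a calcium channel subunit, had 14.2 to 17.0 FPKM in AbfA at 2 h, against 20.3 to 36.5 FPKM in A773, and fell by 0.84 ± 0.19 (limma adjusted p = 0.00282). crzA, the transcription factor that calcineurin acts on, had 70.7 to 92.8 FPKM in AbfA at 8 h, against 41.8 to 52.7 at 2 h, and rose by 0.82 ± 0.17 (limma adjusted p = 0.00304). These 5 calls held in all 12 alternatives, and none of the 5 pairs of groups overlapped. At 2 h, 53.3% of all genes in 1542, 34% in BglC and 40.4% in AbfA did not overlap with A773. Between the times in AbfA, 37.8% of all genes did not. At 8 h, 2 of the 8 rose and 2 fell in AbfA, and 1 fell in BglC and 1 in 1542. Of all genes, 11.3% rose and 16.6% fell in AbfA, 20.9% fell in BglC and 12.7% fell in 1542. The call in 1542, cch1, ended in 6 of 12 alternatives, and that in BglC, pmr1, in 5, scaling among them in both. In AbfA midA, cch1 and pmr1 each ended in 3 and pmcB in 1, and without A773 replicate 3 all 4 ended. Between the times 1 rose in AbfA, 4 fell in BglC, and in A773 1 rose and 3 fell. Of all genes, 10.9% rose in AbfA, 10.6% fell in BglC, and 31.4% rose and 16.8% fell in A773. In 1542 limma and voom called 0, with 2 at an unadjusted p under 0.05, while 8.62% of all genes rose and 9.18% fell.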

How the data were processed

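The authors deposited 1 table of FPKM values, with 1 column per library. HTSeq 0.6.0, SAMtools 0.1.18, bcl2fastq 1.8.4, DESeq2 and FastQC appear in the submitters' processing notes without their role. An aligner, genome build, annotation and strand setting are not given in the sources read, so reads of overlapping genes may not be separated; in the names table no neighbour overlaps creA, creB or AN6566. Per the labels' protocols, RNA with an integrity number of at least 8 from frozen mycelium went into TruSeq Stranded mRNA libraries.

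The values were whole multiples of a step per gene and library, which gave back whole reads for 10631 of 10631 genes (100.0%, tolerance 0.005). Of 9275 genes with enough reads, 9252 had a length that is a multiple of 3, so lengths are coding lengths. The names table, RefSeq ASM1142v1, held 9938 of the IDs and gave 778 a symbol. Its coordinates served only to see which genes neighbour or overlap each other, and none is printed.

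Differences on log2(FPKM + 1) are from limma 3.58.1 (R 4.3.3). They cover 9201 genes that reached 1 FPKM in 3 or more libraries. One fit held 8 group means, with a variance trend and 1 spread per gene over all 24 libraries. A gene was called at a two-sided Benjamini-Hochberg adjusted p under 0.05 over all genes of a comparison, and "rose" and "fell" mean called. The scale understates the change of low genes. Alternatives were a pseudocount of 0.1, no filter, median-of-ratios scaling, a replicate block, voom on the recovered reads, only the libraries compared, and each library left out.

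The members and lists were chosen with earlier results of these data known. Named genes are the members, the 3 most like each by profile, and at most 5 called genes per list by size of change; 2 lists were added after the names table was seen. Of the 8 conidiophore markers, wA is named pksP in that table. A773 carries the allele wA3 of this gene, and the labels do not say whether the recombinant strains do. It is part of the summed level and was among the markers that fell in 1542 at 2 h (−1.37, limma adjusted p = 0.0255).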

Additional observations from a re-analysis of the deposited data

Results flagged for a closer look

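The creA change between the times differed between strains by a test of the difference itself. In AbfA it was higher than in A773 by 0.75 ± 0.18 on the log2(FPKM + 1) scale (SE, limma adjusted p = 0.00735). In 1542 it was higher than in A773 by 0.66 ± 0.18 (limma adjusted p = 0.0134). The mean was 599 FPKM at 8 h in AbfA, against 719 at 2 h, and 551 FPKM at 8 h in 1542, against 702 at 2 h, while A773 had 479.6 FPKM at 8 h, against 955 at 2 h. In each strain all 3 libraries at 8 h were below all 3 at 2 h. Between the times, 37.8% of all genes in AbfA, 41% in 1542 and 57.4% in A773 did not overlap either way. The summed conidiophore markers moved with strain and time too, and their part in this was not tested.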

How the results depend on the processing

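Differences on the log2(FPKM + 1) scale are given here, or F for tests among the 3 recombinant strains. Of 48 results for the 3 genes, 12 were called; 12 were with a pseudocount of 0.1 and with voom, 11 without the filter, 16 after scaling, 10 with the replicate block, and 13 of 45 with only the libraries compared.

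Scaling turned the sign of creA in BglC against A773 at 8 h (0.0632) and of AN6566 over time in A773 (−0.0196). Scaling brought past the threshold creA in AbfA against A773 at 8 h (0.39), creA over time in 1542 (−0.33), creB over time in A773 (−0.52), AN6566 over time on average (−0.16) and creA among recombinant strains at 2 h (F = 8.45), and it ended creA among them at 8 h (F = 4.76). With only the libraries compared, calls ended for creB (−0.50) and creA (−0.42) in AbfA against A773 at 2 h. New ones were creB in AbfA against A773 at 8 h (−0.36), AN6566 in 1542 against A773 at 2 h (0.35), creB over time in A773 (−0.38) and creB among recombinant strains at 8 h (F = 7.70). Without the filter, AN6566 over time in 1542 (−0.44) no longer passed. Over all genes, fits of only the libraries compared called 1319 in place of 2939 for AbfA and 637 in place of 2135 for BglC at 2 h, 868 in place of 1755 for AbfA and 1778 in place of 2974 for BglC over time, and 3009 in place of 4652 among recombinant strains at 2 h. Of the recomputed counts of called genes per list and comparison, 53 moved by over 1.5 times and 362 did not under the other settings, and 148 moved and 452 did not with 1 library left out. The cause was not tested.

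Replicate numbers did not pair the libraries: over 84 pairs with the same number, the correlation of deviations ran from −0.35 to 0.59 with a median of −0.02, and 9 of 24 libraries correlated best with their own number. With the replicate block the calls of AN6566 over time in 1542 (−0.44) and of creA among recombinant strains at 8 h (F = 5.77) ended, and no other call of the 3 genes changed.

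With each library left out in turn, the ranges were as follows where a call or sign changed. Against A773 at 2 h they were −0.49 to −0.31 for creA in AbfA, −0.56 to −0.35 for creA in 1542, −0.80 to −0.34 for creB in AbfA, −0.60 to −0.50 for creB in 1542 and 0.15 to 0.45 for AN6566 in AbfA. Against A773 at 8 h they were 0.23 to 0.47 for creA in AbfA, −0.20 to 0.038 for creA in BglC, −0.0286 to 0.0928 for creB in BglC, −0.21 to 0.11 for AN6566 in AbfA and −0.44 to −0.13 for AN6566 in BglC. Over time they were −0.44 to −0.23 for creA in 1542, −0.48 to −0.36 for AN6566 in 1542, −0.0467 to 0.27 for AN6566 in A773, −0.39 to 0.0635 for creB in AbfA and −0.19 to −0.0743 for creB on average. Against the change in A773 they were −0.017 to 0.44 for creB in AbfA, −0.0086 to 0.23 for creA in BglC, −0.11 to 0.20 for AN6566 in BglC and −0.70 to −0.39 for AN6566 in 1542. Among recombinant strains F ran from 0.120 to 6.01 for creB at 2 h and from 3.40 to 6.92 for creA at 8 h. The ratio of creB to AN6566 changed by −0.13 to 0.0597 on the log2 scale. Counting error is small at these depths, and 3 libraries a group limit the precision.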
